A study of Homo sapiens with 6 samples.

Results

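Antisense long noncoding RNAs were compared with the genes they are named after in PC9 cells in which an antagomir blocked tsRNA-5001a (knockdown) and in PC9 cells given a negative control antagomir. The antisense RNAs were the genes whose symbol ends in -AS and a number and that had at least 300 counts summed over the 6 libraries, EPB41L4A-AS1 left out. This rule gave 236 of the 58174 genes in the table, and 994 further genes with such a symbol had fewer counts. They were thus chosen by symbol and selected on summed counts, which ran from 300 to 123438 with a median of 812 and are a description only. The sense gene of each was the gene named before -AS: 231 were found under that symbol, 1 under a current symbol (KDM7A for JHDM1D) and 1 through its gene identifier (SEPT7). No sense gene was matched for HOXA-AS2, HOXA-AS3 and RPARP-AS1, and 3 sense genes (DLGAP1, PAXIP1 and PTOV1) each have 2 of the antisense RNAs, which left 233 pairs and 230 sense genes.

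PC9 is an established line of human lung adenocarcinoma, an epithelial lung cancer. tsRNAs are fragments of transfer RNAs, and antagomirs are modified oligonucleotides that pair with a small RNA and block it. Both groups had 3 libraries of total RNA: the knockdown group received the antagomir against tsRNA-5001a and the control group the negative control antagomir, all in the same line. Whether the 3 libraries per group stem from different cultures is not stated in the labels. The p-values therefore reflect library-to-library spread, which may be technical. The level of the tsRNA was not measured here.

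A natural antisense RNA is transcribed from the strand opposite a known gene. Where the start sites of both genes face away from each other (head to head), the antisense RNA often comes from the same promoter region, since many human promoters fire in both directions. Where the 3' ends run into each other (tail to tail), each gene has its own promoter. Some antisense RNAs act on the sense gene through chromatin, transcription or pairing with its RNA, and many are short-lived nuclear RNAs that early polyadenylation and the nuclear exosome keep at low levels.

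Promoter regions are shown for 4 antisense RNAs that start beside their sense gene. The start sites of both genes lie in or near these regions. Of the 4, ATP2B1-AS1, ARHGAP5-AS1 and LBX2-AS1 were past the test described below, and PTGES2-AS1 was not. The sequences are those of RefSeq on GRCh38.p14, on the strand of the antisense RNA, 5′ to 3′, with capitals for the bases from its start site on. Stretches annotated as untranslated or coding sequence of another transcript were left out, so the runs differ in length.
ATP2B1-AS1: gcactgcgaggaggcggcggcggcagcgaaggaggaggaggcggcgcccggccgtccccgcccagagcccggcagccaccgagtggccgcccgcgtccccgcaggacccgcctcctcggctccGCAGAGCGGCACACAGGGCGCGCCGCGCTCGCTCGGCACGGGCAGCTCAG
ARHGAP5-AS1: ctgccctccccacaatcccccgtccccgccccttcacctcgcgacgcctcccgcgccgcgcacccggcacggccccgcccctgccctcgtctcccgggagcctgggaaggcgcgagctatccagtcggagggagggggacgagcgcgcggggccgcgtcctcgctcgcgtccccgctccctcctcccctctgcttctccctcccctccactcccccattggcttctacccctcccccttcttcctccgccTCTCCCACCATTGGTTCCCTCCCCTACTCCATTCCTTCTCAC
LBX2-AS1: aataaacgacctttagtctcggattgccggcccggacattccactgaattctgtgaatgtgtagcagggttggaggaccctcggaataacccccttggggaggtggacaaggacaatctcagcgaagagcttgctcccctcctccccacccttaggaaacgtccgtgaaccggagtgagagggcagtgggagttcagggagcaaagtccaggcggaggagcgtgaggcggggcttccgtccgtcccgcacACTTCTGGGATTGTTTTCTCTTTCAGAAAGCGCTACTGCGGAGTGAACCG
PTGES2-AS1: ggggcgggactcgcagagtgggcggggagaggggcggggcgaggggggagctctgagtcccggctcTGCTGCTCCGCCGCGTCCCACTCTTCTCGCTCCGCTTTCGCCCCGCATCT
These are 173 bases at chr12:89708832-89709004 on the plus strand, 292 bases at chr14:32076658-32076949 on the minus strand, 300 bases at chr2:74502343-74502642 on the plus strand and 116 bases at chr9:128128463-128128578 on the plus strand. In RefSeq the start of the sense gene lies 411 bases downstream of that of ATP2B1-AS1 and 723 bases downstream of that of LBX2-AS1. It lies 605 bases upstream of that of ARHGAP5-AS1 in RefSeq and 89 bases upstream of that of PTGES2-AS1, which RefSeq names PTGES2-DT. The GENCODE start of ARHGAP5-AS1 differs from the RefSeq start by 94 bases.

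RefSeq gave a promoter window, from 250 bases before to 50 bases after the start, for 188 of the 236 antisense RNAs. These windows held a median of 26 CpG dinucleotides, against 14 in all 27305 windows, with 29 for the 85 head-to-head genes with starts within 1000 bases and 21 for the other 103. The shown ATP2B1-AS1 window had 43 CpG over its full length, that of PTGES2-AS1 33, that of ARHGAP5-AS1 28 and that of LBX2-AS1 18. A TATA box (TATAAA, either strand) was in 6.4% of the antisense RNA windows and in 12.0% of all windows. The cAMP response element (TGACGTCA) was in 2.7% against 2.0%, the AP-1 element (TGANTCA) in 6.4% against 7.8%, and the C/EBP-ATF element (TGATGCAAT) in 0 of 188 windows against 0.3%. None of these motifs was found in the windows of the 4 genes shown.

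Knockdown libraries held 32342017 to 40066223 counts and control libraries 34623672 to 39615278. Between 19041 and 19970 genes had at least 10 counts in a knockdown library, and between 18148 and 18566 in a control library. The abundant nuclear RNA MALAT1 stood apart in knockdown library 2, at 259 CPM, against 70.2 and 99.7 CPM in the other knockdown libraries and 65.2 to 89.7 CPM in the controls. CPM here are counts scaled by the TMM-adjusted library total, in the usual unit. The epithelial markers EGFR, EPCAM, KRT7, KRT8, KRT18, KRT19 and CDH1 were all detected, while the alveolar marker SFTPB was at or near 0 in both groups. NKX2-1, a lung lineage transcription factor gene, was at 0.898, 0.912 and 0.564 CPM in the knockdown libraries and 0.0802, 0.372 and 0 CPM in the controls, with no overlap (log2 fold change 2.43, edgeR adjusted p 0.22). Of 5 fibroblast markers, PDGFRB was past the test at 7.55, 4.3 and 7.28 CPM in the knockdown libraries and 1.02, 0.651 and 0.838 CPM in the controls. LUM was at 0 in every library, and the summed fibroblast list was 41.1 to 61.1 CPM after knockdown and 40.1 to 47.0 CPM in the controls. The 5 immune markers summed to 61.1 to 77.6 CPM after knockdown and 58.8 to 70.8 CPM in the controls. The 3 endothelial markers summed to 31.3 to 40.6 and 20.7 to 37.3 CPM. COL1A1, CD68 and CDH5 made up much of these sums. Higher without overlap were PDGFRB and DCN of 3 fibroblast markers tested, PECAM1 and VWF of 3 endothelial, and CD14 of 3 immune. Of all genes tested 13.4% were. The leukocyte marker PTPRC reached at most 0.677 CPM in any library. The part of these genes in the results was not tested.

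After knockdown 3 antisense RNAs were higher past the test and none was lower: ATP2B1-AS1, ARHGAP5-AS1 and LBX2-AS1. ATP2B1-AS1 rose 7.4-fold, ARHGAP5-AS1 2.48-fold and LBX2-AS1 2.14-fold. In GENCODE 29 all 3 lie head to head with their sense gene and overlap its 5' end, while in RefSeq the start sites of ARHGAP5-AS1 and ARHGAP5 point away from each other without overlap. None of the 3 sense genes was past the test. The test was edgeR's quasi-likelihood test over 19040 genes, with a Benjamini-Hochberg adjusted p under 0.05. It called 1.1% of all genes higher and 0.0735% lower, and the 3 of 236 antisense RNAs are near that share. Of the 3, ATP2B1-AS1 met the count minimum only through its level after knockdown. A lower number of cells with an RNA and less of the RNA per cell cannot be told apart in such bulk samples.

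ATP2B1-AS1 (ENSG00000271614) spans bases 89708959 to 89712590 of chromosome 12 (GRCh38, plus strand). Its sense gene ATP2B1 encodes a calcium pump of the plasma membrane. ATP2B1-AS1 had 94, 127 and 150 counts, or 2.48, 3.74 and 3.52 CPM, in the knockdown libraries, against 18, 14 and 15 counts, or 0.481, 0.434 and 0.393 CPM, in the controls. The lowest knockdown library stood well above the highest control library. The log2 fold change was 2.89 (standard error 0.28, edgeR adjusted p 0.00411), the highest of the 236. At its control level in all libraries this RNA would have missed the count minimum. Its rank among the 236 thus draws on how the set was chosen. ATP2B1 was at 39.8, 66.8 and 56.6 CPM after knockdown and 42.3, 35.5 and 38.7 CPM in the controls, and here the groups overlapped (log2 fold change 0.49, edgeR adjusted p 0.267). The annotated exons of the pair share 82 bases, 2.26% of the exon length of ATP2B1-AS1. Per length, ATP2B1-AS1 stood at 7.79% of the TPM of ATP2B1 after knockdown and at 1.41% in the controls. Their log2 ratio of CPM differed by 2.38 between the groups with no overlap (exact permutation p 0.1, two-sided, the smallest that 3 against 3 libraries can give).

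ARHGAP5-AS1 (ENSG00000258655; chromosome 14, 32074946 to 32076793, minus strand) overlaps the start of ARHGAP5, which encodes a GTPase-activating protein. It was at 7.95, 6.27 and 6.39 CPM in the knockdown libraries, against 2.11, 3.19 and 3.01 CPM in the controls, with no overlap. The log2 fold change was 1.31 (standard error 0.23, edgeR adjusted p 0.038). ARHGAP5 was at 61.8, 117 and 77.2 CPM after knockdown and 66.2, 55.6 and 69.9 CPM in the controls. Its groups overlapped, and knockdown library 2 was the highest. The log2 ratio of the pair was 0.95 higher after knockdown, but its libraries overlapped as well (exact permutation p 0.2).

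LBX2-AS1 (ENSG00000257702; chromosome 2, 74502595 to 74504678, plus strand) overlaps the start of LBX2, a homeobox transcription factor gene. It was at 5.23, 5.0 and 6.83 CPM in the knockdown libraries, against 2.65, 2.79 and 2.54 CPM in the controls, again with no overlap. The log2 fold change was 1.10 (standard error 0.21, edgeR adjusted p 0.0486). LBX2 itself was low, at 1.43, 1.62 and 1.13 CPM after knockdown and 1.42, 0.589 and 0.943 CPM in the controls, with overlap. The exons of this pair share 650 bases, 31.2% of LBX2-AS1. The sources used here do not say whether counting used strand, so reads from exons that overlap on opposite strands cannot be told apart. ATP2B1-AS1 was past the test under all 16 other settings tried, ARHGAP5-AS1 under 7 and LBX2-AS1 under 4, and both lost the call whenever any 1 library was left out, with edgeR adjusted p of 0.0859 to 0.118 for ARHGAP5-AS1 and 0.0788 to 0.21 for LBX2-AS1.

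**Figure D1:**
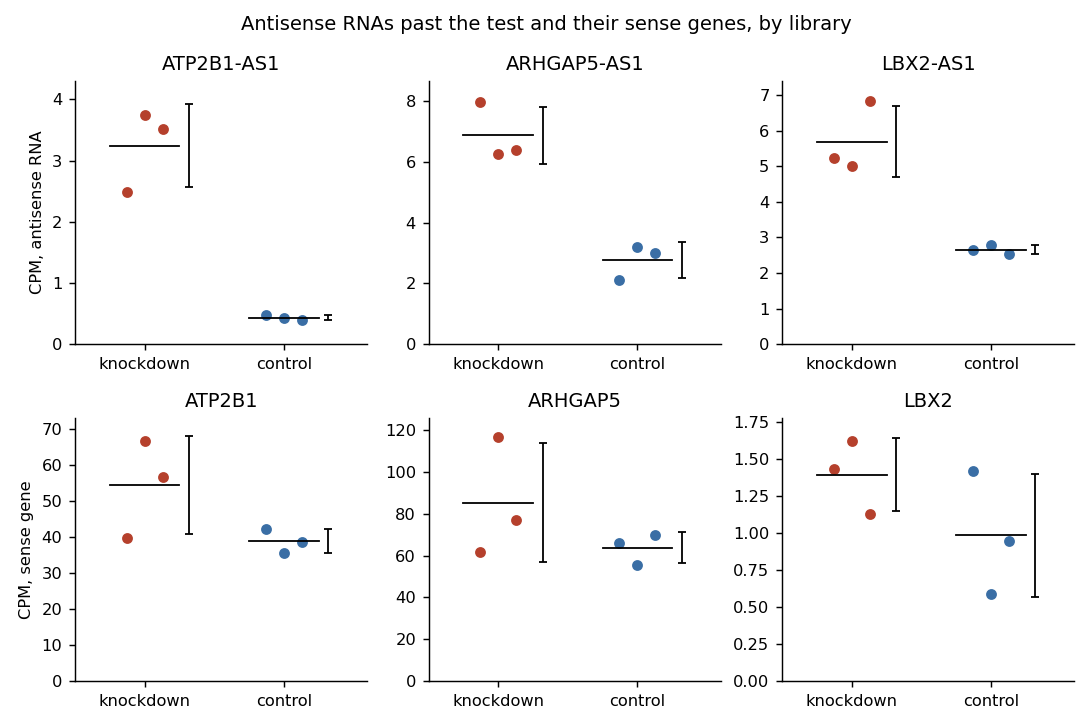
CPM in each library (points) of the 3 antisense RNAs past the test (upper row) and of their sense genes (lower row), knockdown left and control right, with the mean (line) and SD (bar) of 3 libraries. Every knockdown point lies above every control point in the upper row, while the groups overlap in the lower row.

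Most of the 236 antisense RNAs stood somewhat higher after knockdown. All 236 had enough counts to be tested. Of these, 174 had a log2 fold change above 0 and 62 below, with a median of 0.18, while the median of all genes tested was 0.05. At an unadjusted p under 0.05, 42 were higher and 6 lower; over all genes that criterion holds for 9.77% higher and 6.71% lower. In 62 every knockdown library was above every control library and in 11 below, 26.3% and 4.66% of the 236, against 13.4% and 10.8% of all genes tested. The median standard error of a log2 fold change was 0.24, larger than their median log2 fold change. The rule counts both groups together, but 18 of the 236 would have missed 300 counts at the control level in all libraries, and 4 at the knockdown level. Among the 18 are ATP2B1-AS1, LGALS8-AS1, MAN1B1-AS1, RASAL2-AS1 and PTGES2-AS1, which are named here for being higher.

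The shift went with abundance over the whole table. The antisense RNAs were mostly rare, with a median of 3.65 CPM and 199 of 236 under 10 CPM. Below 1 log2 CPM the median log2 fold change was 0.28 for 46 antisense RNAs and 0.29 for 5328 genes in that range. The 2 sets were not of like abundance there, since the count minimum keeps out the rarest antisense RNAs. Their median abundance was 0.75 log2 CPM for the antisense RNAs and -0.57 for all genes. From 1 to 2 log2 CPM the median log2 fold changes were 0.24 (antisense RNAs) and 0.20 (all genes). From 2 to 3 they were 0.17 and 0.11, and from 3 to 4 they were 0.12 and 0.06. At 4 log2 CPM and above the median log2 fold change was 0.08 for 17 antisense RNAs and -0.03 for 8859 genes. In other noncoding classes the median was 0.34 for 1023 long intergenic RNAs and 0.27 for 1007 genes of GENCODE's antisense class without an -AS symbol. In 14192 protein-coding genes it was 0.03. After removal of each library's abundance trend, the median of the 236 was 0.06, and that of all genes tested 0.01.

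**Figure D2:**
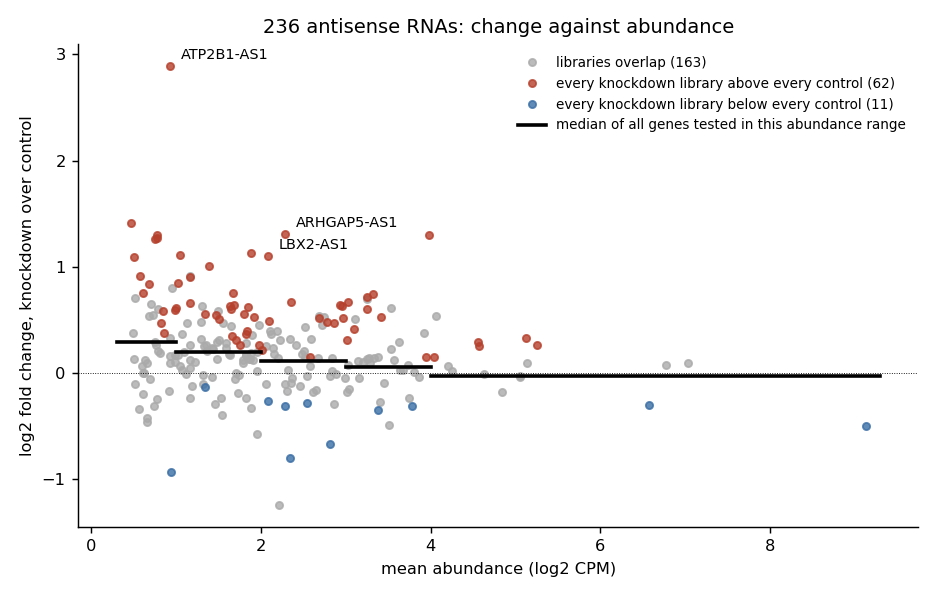
Log2 fold change, knockdown over control, against mean log2 CPM for the 236 antisense RNAs. Red points are the 62 whose knockdown libraries all lie above the controls, blue points the 11 whose knockdown libraries all lie below, and black lines the median of all genes tested in each abundance range, which falls from 0.29 below 1 log2 CPM to -0.03 at 4 and above.

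In 12 antisense RNAs the level after knockdown was at least 2-fold that of the controls, and in 1 it was at least 2-fold lower. Of the 12, 9 lie head to head with their sense gene, as do 137 of all 236, and a link with arrangement was not tested. The share of all genes at least 2-fold higher was not counted. Some of the 12, such as LGALS8-AS1, would have missed 300 counts at the control level, as stated above. Besides the 3 past the test, the highest log2 fold changes without overlap belonged to LGALS8-AS1, MAN1B1-AS1, SLC9A3-AS1 and RASAL2-AS1. SLC9A3-AS1, named after the gene of a sodium-proton exchanger, was at 23.1, 20.4 and 23.8 CPM in the knockdown libraries, against 13, 6.76 and 7.51 CPM in the controls. It missed the threshold narrowly (log2 fold change 1.30, edgeR adjusted p 0.0527). LGALS8-AS1, which lies inside the gene of galectin-8, averaged 1.93 ± 0.452 CPM after knockdown and 0.724 ± 0.191 CPM in the controls (SD, n = 3 each; log2 fold change 1.41, edgeR adjusted p 0.0862). MAN1B1-AS1, divergent from the gene of an endoplasmic reticulum mannosidase, averaged 2.35 ± 0.509 CPM after knockdown and 0.954 ± 0.214 CPM in the controls (SD, n = 3 each; edgeR adjusted p 0.0891). RASAL2-AS1, divergent from the gene of a Ras GTPase-activating protein, was at 2.38, 2.27 and 2.37 CPM against 1.26, 0.527 and 1.1 CPM in the controls (edgeR adjusted p 0.13). DESeq2 called all 4 of these higher, among 13 antisense RNAs in all, where it called 3.69% of all genes.

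No antisense RNA was lower past edgeR's test, and the lowest values without overlap were small to moderate. LRRC75A-AS1, also known as the small nucleolar RNA host gene SNHG29, was by far the most abundant of the 236. It was at 455, 485 and 451 CPM in the knockdown libraries, against 597, 700 and 672 CPM in the controls, with no overlap (log2 fold change -0.50, edgeR adjusted p 0.0761). PRR34-AS1 was at 3.41, 3.86 and 3.73 CPM after knockdown and 6.15, 7.07 and 5.97 CPM in the controls (log2 fold change -0.80, edgeR adjusted p 0.0885). HOXA-AS2, transcribed within the HOXA cluster of homeobox genes, was at 5.23, 6.18 and 4.79 CPM after knockdown and 8.48, 8.99 and 8.27 CPM in the controls (log2 fold change -0.67, edgeR adjusted p 0.132). DESeq2 called these 3 lower. The log2 fold change was -0.93 for VASH1-AS1 (standard error 0.35), -0.35 for TMEM44-AS1 and -0.31 for LOXL1-AS1, each without overlap and with an edgeR adjusted p of 0.252 or more. SVIL-AS1, named after its values were seen, had the lowest log2 fold change of all, -1.24, but its libraries overlapped: 3.51, 2.3 and 2.37 CPM after knockdown against 8.45, 8.65 and 2.28 CPM in the controls.

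The other most abundant antisense RNAs differed little between the groups. FGD5-AS1 averaged 136 ± 29.4 CPM after knockdown and 128 ± 6.74 CPM in the controls (SD, n = 3 each), and PAX8-AS1 113 ± 8.55 and 107 ± 11.0 CPM. AFAP1-AS1, much studied in lung and other carcinomas, was at 89.9, 82.0 and 84.1 CPM in the knockdown libraries and 113, 96.5 and 106 CPM in the controls. Its groups did not overlap, but the log2 fold change of -0.30 did not pass the test (edgeR adjusted p 0.263). IGFL2-AS1 and BAIAP2-AS1 stood higher without overlap, at 41.4 ± 2.74 against 34.6 ± 2.63 CPM and 39.0 ± 7.38 against 31.1 ± 2.60 CPM (edgeR adjusted p 0.359 and 0.366). PTOV1-AS1 averaged 33.0 ± 4.06 CPM after knockdown and 33.6 ± 3.27 CPM in the controls.

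OIP5-AS1, the conserved RNA also called cyrano, split by library number and not by group. It was at 41.6, 62.6 and 5.17 CPM in the knockdown libraries and 51.0, 44.8 and 6.81 CPM in the controls, so both libraries numbered 3 stood several-fold below the other 4. In the deposited TPM the gap was smaller: 11.3, 19.2 and 8.28 TPM after knockdown and 12.5, 13.1 and 7.57 TPM in the controls. No other of the 236 had both libraries of 1 number at under 1/2 the CPM of every other library, against 25 of all genes tested for number 3 and 20 each for numbers 1 and 2.

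Of a list of antisense RNAs well known from earlier studies, 25 were among the 236. Their median log2 fold change was 0.13, with 18 above 0 and 7 below. Without overlap 6 were higher and 4 lower, where 13.4% and 10.8% of all genes tested were. LBX2-AS1 alone was past the test. NNT-AS1 averaged 9.73 ± 1.3 CPM after knockdown and 7.31 ± 0.894 CPM in the controls, and MCM3AP-AS1 8.38 ± 1.31 and 6.05 ± 0.617 CPM, each without overlap (SD, n = 3 each; edgeR adjusted p 0.303 and 0.269). PSMA3-AS1 (log2 fold change 0.38), TTN-AS1 (0.03) and TP73-AS1 (0.02) overlapped between the groups.

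Per length, most antisense RNAs were much less abundant than their sense gene. In the controls 177 of 233 had lower TPM than the sense gene and 56 higher, and 52 were higher in both groups. The median antisense level was 22.1% of the sense level after knockdown and 21.4% in the controls. The median TPM of the antisense RNAs was 5.13 after knockdown and 3.9 in the controls, and that of the sense genes 21.3 and 18.2. The median gene tested stood 0.27 higher in log2 TPM after knockdown, so the deposited TPM are used here between genes and not between groups. FGD5-AS1, PAX8-AS1 and LRRC75A-AS1 were among those above their sense gene. FGD5, a guanine nucleotide exchange factor gene, had only 0.702 TPM after knockdown and 0.547 TPM in the controls.

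The pairs fell into a few arrangements. In 91 the genes overlapped head to head, in 46 they were head to head but apart, and in 51 they overlapped tail to tail. In 26 the antisense gene lay inside the sense gene, in 17 the sense gene lay inside the antisense gene, and in 2 they were tail to tail and apart. Start sites of 103 head-to-head pairs were within 1000 bases of each other, at a median distance of 248 bases. Exons of both genes overlapped in 160 pairs.

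Among arrangements with more than 2 pairs, the median log2 fold change was highest, 0.44, for antisense RNAs head to head with but apart from their sense gene, of which 22 of 46 were higher without overlap and 1 was lower. It was 0.20 for head-to-head overlapping genes, 0.22 for those inside the sense gene, 0.08 for those around it and 0.07 for those overlapping tail to tail. Over the 103 with starts within 1000 bases the median was 0.31, with 36 higher and 3 lower without overlap (35.0% and 2.91%). Over the other 130 it was 0.13, with 25 higher and 7 lower (19.2% and 5.38%). Sense genes of the same arrangements had medians of 0.04 and 0.12. Of all genes tested 13.4% were higher and 10.8% lower without overlap. These shares were 20.7% and 4.41% for all genes below 1 log2 CPM, and 22.7% and 5.63% from 1 to 2. All genes below 1 log2 CPM had a lower median abundance than the antisense RNAs in that range. Below 1 log2 CPM the median was 0.59 for 22 antisense RNAs with starts within 1000 bases and 0.09 for 23 in other arrangements. From 3 to 4 log2 CPM it was 0.29 for 17 and 0.09 for 21, and between 1 and 3 log2 CPM the medians lay closer together (0.26 and 0.20, then 0.21 and 0.14). At 4 log2 CPM and above only 3 had starts within 1000 bases, with a median of -0.03 against 0.09 for 13 others. The difference between the arrangements was not tested.

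**Figure D3:**
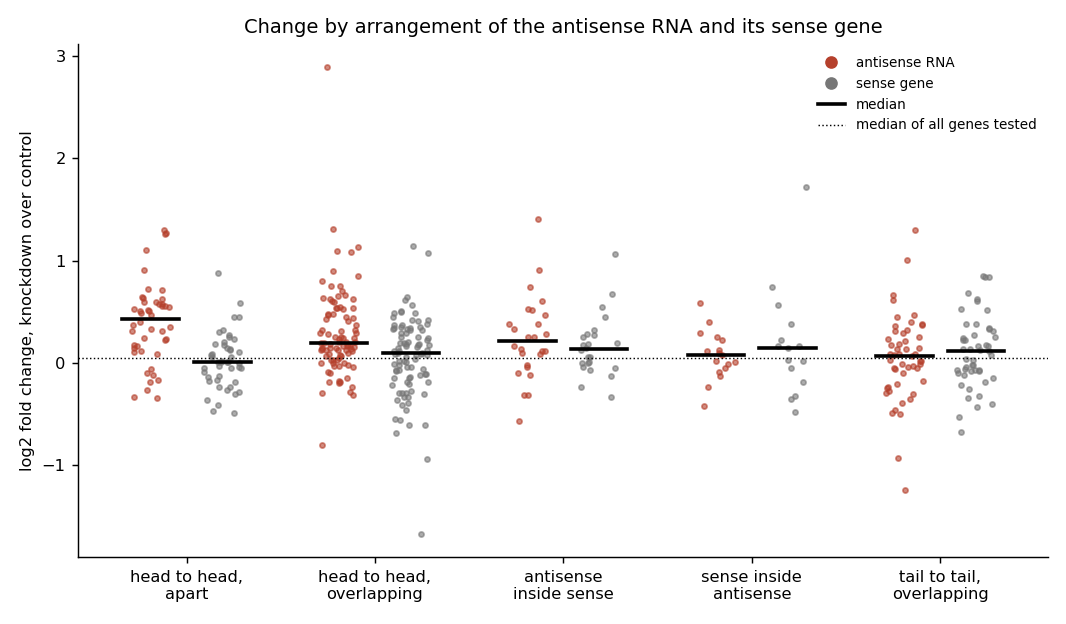
Log2 fold change, knockdown over control, of antisense RNAs (red) and their sense genes (grey) by arrangement, with medians (black lines) and the median of all genes tested (dotted). The red median is highest, 0.44, for head-to-head genes that are apart, whose sense genes have a median of 0.01.

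The sense genes as a set stood near the rest of the table. Of 223 tested, 2 were past the test, both higher, where 1.17% of all genes were past it in either direction. DESeq2 called 3 sense genes higher and 5 lower, and with GC and length trends removed edgeR called 2 higher and 7 lower. Calls over all genes rose as well. DESeq2 called 483 higher and 218 lower of 19021 genes (3.69%). With GC and length trends removed edgeR called 392 higher and 243 lower of 19040 (3.34%). NDUFA6, MRPL23 and TMEM147 were lower in both settings. The median log2 fold change of the sense genes was 0.08, with 133 above 0 and 90 below. Without overlap 23 were higher and 26 lower, 10.3% and 11.7% of the 223, against 13.4% and 10.8% of all genes.

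SLC25A25, which encodes a calcium-regulated carrier of ATP across the inner mitochondrial membrane, rose 1.62-fold. It was at 53.0, 50.9 and 50.8 CPM in the knockdown libraries and 33.8, 28.5 and 33.4 CPM in the controls (log2 fold change 0.69, standard error 0.13, edgeR adjusted p 0.0474). Its tail-to-tail partner SLC25A25-AS1 was at 10, 9.21 and 11.0 CPM after knockdown and 8.21, 11.8 and 7.46 CPM in the controls, with overlap.

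ENTPD3, which encodes an ectonucleotidase that splits extracellular ATP, was at 2.03, 2.35 and 1.64 CPM in the knockdown libraries and 0.561, 0.434 and 0.812 CPM in the controls. The groups did not overlap (log2 fold change 1.72, standard error 0.32, edgeR adjusted p 0.0484). ENTPD3 lies inside ENTPD3-AS1, which was at 2.43, 2.38 and 2.28 CPM after knockdown and 2.49, 2.48 and 2.78 CPM in the controls (log2 fold change -0.13, edgeR adjusted p 0.793). Both sense genes lost the call whenever any 1 library was left out, with edgeR adjusted p from 0.0764 to 0.19.

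Measured changes of the 2 genes of a pair showed almost no correlation. The antisense log2 fold changes had quartiles of -0.01 and 0.47 and a median standard error of 0.24. Noise of that size can lower a correlation, so a link between the true changes is not excluded. Over the 225 pairs with both genes tested, Pearson's r of the log2 fold changes was 0.05 and Spearman's rank correlation 0.04, across pairs that share the same 6 libraries. Both genes were above 0 in 97 pairs and both below in 22. The antisense RNA was above 0 and the sense gene below in 69, and the reverse held in 37. Over 157 pairs with overlapping exons r was 0.11, and over 67 without such overlap it was -0.10. For the 103 pairs with starts within 1000 bases r was 0.13.

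**Figure D4:**
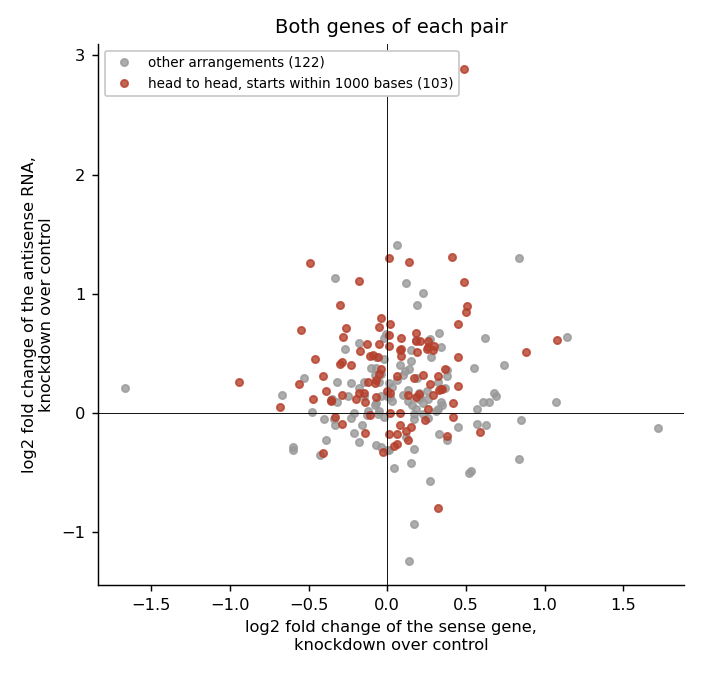
Log2 fold change, knockdown over control, of each antisense RNA against that of its sense gene for 225 pairs, with 103 head-to-head pairs with starts within 1000 bases in red. The cloud shows no slope (r = 0.05); ATP2B1-AS1 is the highest point, at 2.89.

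The ratio of antisense to sense CPM was higher in every knockdown library than in every control library in 41 of 233 pairs, and lower in 16. How many pairs of unrelated genes of like abundance would separate was not counted. The antisense RNAs had a median of 1.89 log2 CPM and the sense genes 5.25, and rare genes stood higher after knockdown over the whole table. Over the 225 pairs with both genes tested, the median change of the log2 ratio was 0.19. An exact permutation test of 3 against 3 libraries cannot go below 0.1, so these are given as values with no call.

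In 5 of 233 pairs both genes were apart between the groups in opposite directions. The ratio of such a pair separates the groups by this choice. Taken singly, 26.3% of the antisense RNAs were higher and 4.66% lower without overlap, and 10.3% and 11.7% of the sense genes. How many such pairs unrelated genes would give was not tested. PTGES2-AS1 (chromosome 9, 128128529 to 128130628, plus strand) starts 67 bases from PTGES2, a prostaglandin E synthase gene, in the promoter region shown above. It was at 2.38, 1.85 and 2.63 CPM in the knockdown libraries and 1.44, 0.651 and 0.759 CPM in the controls. PTGES2 was at 52.6, 43.9 and 55.8 CPM in the knockdown libraries and 58.8, 78.9 and 76.3 CPM in the controls. So the antisense RNA was higher and the sense gene lower in each knockdown library, and the log2 ratio differed by 1.81, although neither gene passed the test (edgeR adjusted p 0.148 for PTGES2-AS1 and 0.198 for PTGES2).

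UCKL1-AS1, over the start of a uridine-cytidine kinase-like gene, was at 5.2, 5.0 and 4.72 CPM after knockdown and 3.74, 1.64 and 1.44 CPM in the controls. UCKL1 was at 72.5, 52.9 and 71.6 CPM after knockdown and 81.4, 88.1 and 78.2 CPM in the controls, and the log2 ratio differed by 1.6. MIF, the gene of macrophage migration inhibitory factor, was at 755, 410 and 659 CPM in the knockdown libraries and 862, 1105 and 932 CPM in the controls (edgeR adjusted p 0.192). Its tail-to-tail partner MIF-AS1 was at 16.7, 18.1 and 16.8 CPM after knockdown and 15.4, 14.6 and 16.6 CPM in the controls, which barely separated the groups. NNT, a mitochondrial transhydrogenase gene, was at 26.2, 31.2 and 26.4 CPM after knockdown and 35.6, 32.6 and 35.0 CPM in the controls. With NNT-AS1 higher, the log2 ratio differed by 0.72. ENTPD3-AS1 over ENTPD3, described above, was the 1 pair of the 5 with a lower ratio after knockdown (-1.87).

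**Figure D5:**
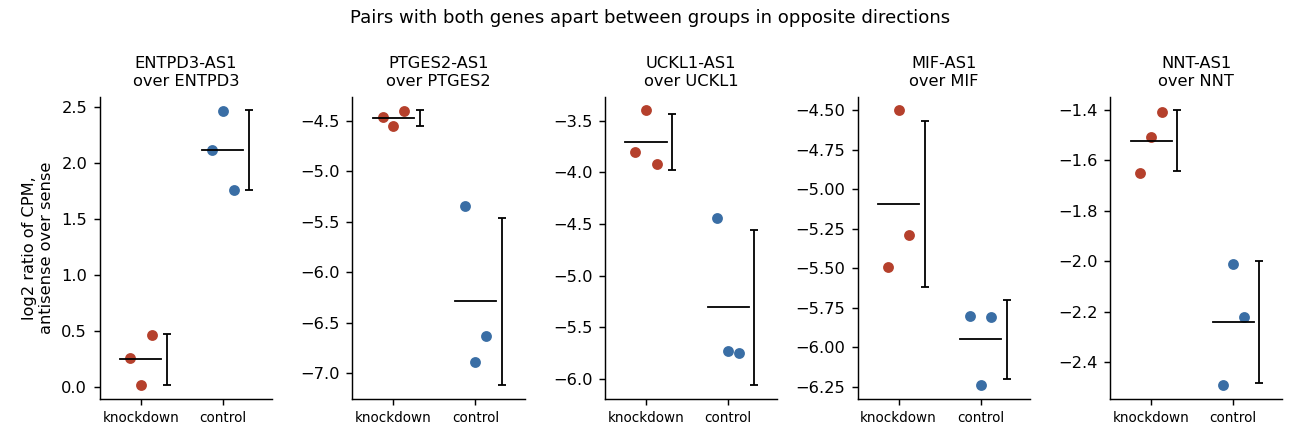
Log2 ratio of antisense over sense CPM in each library (points), with mean (line) and SD (bar) of 3 libraries, for the 5 pairs whose genes were both apart between the groups in opposite directions, knockdown left and control right. The ratio is lower in every knockdown library for ENTPD3-AS1 and higher in every knockdown library for the other 4. This separation follows from how the pairs were chosen.

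In 5 other pairs both genes were apart in the same direction, 4 higher and 1 lower. This count too was not set against that of unrelated genes. RAB30-AS1, divergent from the gene of a small GTPase, was at 2.8, 4.18 and 2.87 CPM in the knockdown libraries and 2.17, 2.26 and 2.46 CPM in the controls. RAB30 was at 4.78, 9.45 and 4.51 CPM in the knockdown libraries and 3.77, 3.22 and 3.19 CPM in the controls, and knockdown library 2 was the highest for both. SLC9A3-AS1 with SLC9A3, SLC25A21-AS1 with SLC25A21 and UNC5B-AS1 with the netrin receptor gene UNC5B had sense log2 fold changes of 0.84, 1.08 and 0.55. LOXL1-AS1 and LOXL1, a lysyl oxidase-like gene, were both lower, with log2 fold changes of -0.31 and -0.60. No gene of these 5 pairs passed the test, and the antisense to sense ratio overlapped between the groups in each.

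The machinery that limits antisense and promoter-upstream RNA was described by its genes. Of 52 tested genes of the exosome, its nuclear adaptors, Integrator, cleavage and polyadenylation and U1 factors, 0 were past edgeR's test, 0 past DESeq2's, and 2 had an unadjusted p under 0.05 in edgeR. Their median log2 fold change was -0.08, with 17 above 0 and 35 below; 0 were higher and 6 lower without overlap. These 6 are 11.5% of the 52, near the 10.8% of all genes tested that were lower without overlap. They were EXOSC8 and EXOSC10 of the exosome, SRRT, INTS9, CSTF2 and SNRPC, with log2 fold changes from -0.37 to -0.24. EXOSC10, the nuclear exosome nuclease, was at 67.2, 69.2 and 67.6 CPM after knockdown and 82.0, 76.7 and 82.3 CPM in the controls (edgeR adjusted p 0.321). By part, the median was -0.24 for 13 exosome genes and -0.16 for 8 genes of cap binding, U1 and terminators. It was -0.07 for 11 cleavage and polyadenylation genes, -0.06 for 14 Integrator genes and 0.04 for 6 genes of the nuclear adaptors. The exosome genes did not all go 1 way, with DIS3 at 0.34. Whether these genes play a part in the antisense levels was not tested.

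Of 16 genes that sense or edit double-stranded RNA, 1 was past the test, as were 1.1% of all genes on the higher side, and 7 were higher without overlap. These 7 are 43.8% of the 16, against 13.4% of all genes tested, and the median log2 fold change of the list was 0.28. The list was chosen with earlier results of these data known, so its share is a description only. OAS2, an interferon-induced enzyme that double-stranded RNA activates, rose: it was at 6.44, 7.48 and 6.04 CPM in the knockdown libraries and 1.34, 1.39 and 0.89 CPM in the controls (log2 fold change 2.46, edgeR adjusted p 0.00411). OAS1 was at 24.3, 25 and 26.7 CPM after knockdown and 12.5, 16.1 and 15.4 CPM in the controls (edgeR adjusted p 0.0532). The editing enzyme ADAR overlapped between the groups.

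The minimum of 300 counts fell among RNAs of like level. Just inside it were LGALS8-AS1 with 300 counts and TOB1-AS1 and SSBP3-AS1 with 304 each. Just outside were TMEM202-AS1 with 298, ZFHX2-AS1 with 296 and TAPT1-AS1 with 292. Of the 994 rarer antisense-named genes, 224 had enough counts to be tested, and 388 were at 0 in every library. Among the tested ones the median log2 fold change was 0.43, and 4 were past the test, all higher. Of all genes tested 1.1% were called higher, and of all genes below 1 log2 CPM 111 of 5328. CFLAR-AS1, antisense to an apoptosis regulator gene, was at 1.37, 1.59 and 1.29 CPM after knockdown and 0.374, 0.465 and 0.419 CPM in the controls (edgeR adjusted p 0.0367). NEXN-AS1 was at 1.08, 1.15 and 0.939 CPM after knockdown and 0.16, 0.124 and 0.209 CPM in the controls (edgeR adjusted p 0.0193). MATN1-AS1 had an edgeR adjusted p of 0.0457 and MAGI2-AS3, which was at 0 in 2 control libraries, one of 0.0232.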

How the data were processed

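RNA of PC9 cells was sequenced in 6 libraries, 3 per group, and groups were taken from the labels. Per the labels' protocols, the authors aligned quality-checked Illumina reads to a reference genome and counted them by gene. Which aligner and counter were used, and whether strand was, is not given in the sources used here. One deposited table has 3 values for each gene and library: a whole-number count, TPM and FPKM. Tests used the counts deposited by the authors, TPM deposited by the authors served for levels between genes, and FPKM deposited by the authors was not used. The submitters' processing notes name hg19, but of 57836 genes shared with GENCODE 29 on GRCh38, 56007 had the same position and strand in the table, so printed positions are those of the table and of GRCh38. Arrangement, exon overlap and gene class came from GENCODE 29.

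Low genes were removed by filterByExpr (minimum 10 counts); the rest were scaled by TMM and tested with edgeR 4.0.16 in R 4.3.3 (quasi-likelihood F-test, Benjamini-Hochberg adjustment at 0.05 over all genes tested), on all 6 libraries with no covariate. The biological coefficient of variation was 22.9%. The standard error of a log2 fold change was computed from its F statistic. Ratios within pairs used 0.5 added counts and an exact permutation test. Libraries within a group differed beyond sampling noise (chi-square over degrees of freedom 33.6 to 85.3), and each counted once.

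The antisense RNAs, the gene lists, the arrangement classes and the abundance ranges were chosen with earlier results of these data known. Named were genes past the test, the 6 highest and 6 lowest log2 fold changes without overlap, the 8 most abundant, up to 8 studied RNAs, up to 6 pairs apart in each direction, and 3 genes on each side of the minimum. Alternatives were other scalings and filters, DESeq2 1.42.0, limma-voom 3.58.1, a replicate block, removal of abundance or of GC and length trends, leaving out each library, other count minimums and a threshold of 0.01. Plots come from Python 3.11.15 with matplotlib 3.10.9.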

Additional observations from a re-analysis of the deposited data

How the results depend on the processing

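The count of antisense RNAs past the test was 3, and 5 with library-size scaling, 1 without the filter, 13 with DESeq2 (10 higher, 3 lower), 1 with the abundance trend removed, 10 with GC and length trends removed (8 higher, 2 lower), 1 at an adjusted p of 0.01, 7 with a minimum of 100 total counts, 1 with a minimum of 1000, and 1 to 3 with 1 library left out. The count of sense genes was 2, and 0 with DESeq2 size factors, without the filter, with the abundance trend removed or at 0.01, 8 with DESeq2 (3 higher, 5 lower), 1 with limma-voom, 9 with GC and length trends removed (2 higher, 7 lower), and 0 to 1 with 1 library left out. Calls over all genes moved with the settings too. Of all genes, 1.17% were past the test in the main setting and 1.68% with library-size scaling. DESeq2 called 3.69%, and edgeR 3.34% with GC and length trends removed. The share was 0.662% with the abundance trend removed and 0.422% without the filter. The cause of these differences was not tested. Deviations of libraries with the same number were nearly uncorrelated over all genes tested (0.01, -0.10 and -0.03). Single genes such as OIP5-AS1 did split by number, and the labels state no pairing. With the replicate number as a block 1 antisense RNA and 0 sense genes were past the test, against 34 of all genes. The median of the sense genes was then 0.07.

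The median log2 fold change of the 236 was 0.31 with library-size scaling, where that of all genes was 0.17, 0.06 with the abundance trend removed, 0.28 and 0.12 at minimums of 100 and 1000, and 0.13 to 0.22 with 1 library left out. That of the sense genes was 0.21 with library-size scaling, 0.05 with DESeq2 or its size factors, 0.10 with upper-quartile scaling, 0.06 with limma-voom or the abundance trend removed, 0.01 with GC and length trends removed, and 0.02 to 0.09 with 1 library left out. For starts within 1000 bases it was 0.42 with library-size scaling, 0.17 with the abundance trend removed and 0.25 to 0.31 with 1 library left out. For other arrangements it was 0.25, 0.02 and 0.09 to 0.15, and 0.08 with GC and length trends removed. Pairs without overlap in their ratio numbered 57, and 73 to 94 with 1 library left out, where 2 libraries meet 3. The pair correlation was -0.10 without exon overlap. Median antisense TPM after knockdown, 5.13, was 2.92 and 11.4 at minimums of 100 and 1000. No gene past the test changed sign under the 16 alternatives followed for named genes. Named antisense RNAs near 0 did: TP73-AS1 in 9 of them, TTN-AS1 in 7, OIP5-AS1 in 6, PTOV1-AS1 and ZFHX2-AS1 in 3, TOB1-AS1 in 2, and FGD5-AS1 and PAX8-AS1 in 1 each. Depth limits the rarest of these RNAs: LGALS8-AS1 had 300 counts over 6 libraries.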

Other observations

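Some genes outside the rule for named genes were chosen after their values were seen. DLGAP1-AS1 and DLGAP1-AS2 both lie inside DLGAP1, a gene of a postsynaptic scaffold protein that these cells hardly expressed, at 0.164 CPM or less in every library. DLGAP1-AS2 was at 11.5, 13.2 and 12.5 CPM in the knockdown libraries and 7.25, 7.16 and 7.8 CPM in the controls, with no overlap (edgeR adjusted p 0.0641). DLGAP1-AS1 was at 8.48, 9.24 and 9.75 CPM after knockdown and 6.23, 6.39 and 6.52 CPM in the controls (edgeR adjusted p 0.173). At PAXIP1, the head-to-head PAXIP1-AS1 was higher without overlap (log2 fold change 0.53, edgeR adjusted p 0.179), while the tail-to-tail PAXIP1-AS2 overlapped between the groups (0.40, edgeR adjusted p 0.434).

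NDUFA6, a gene of mitochondrial complex I, had the smallest adjusted p of the sense genes that were lower. It was at 34.3, 30.8 and 32.8 CPM after knockdown and 63.2, 76.5 and 48.1 CPM in the controls (log2 fold change -0.94, edgeR adjusted p 0.0504), and NDUFA6-AS1, 24 bases from its start, overlapped between the groups.

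A few sense genes had 1 library far from the rest. SH3PXD2A was at 113, 170 and 94.4 CPM after knockdown and 106, 3.6 and 70.2 CPM in the controls, and LPP was at 33.3, 220 and 24.2 CPM after knockdown and 95, 60.8 and 38.6 CPM in the controls. Their antisense RNAs did not show such a library: SH3PXD2A-AS1 was at 11, 9.57 and 9.56 CPM after knockdown and 10.1, 9.95 and 8.19 CPM in the controls, and LPP-AS2 at 2.72, 3.09 and 2.75 CPM after knockdown and 1.52, 1.46 and 1.6 CPM in the controls. NRSN2 was at 2.88, 2.88 and 2.09 CPM after knockdown and 2.33, 12.3 and 10.4 CPM in the controls, so its log2 fold change of -1.67 came with overlapping groups (edgeR adjusted p 0.187).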
